A study of Microtus ochrogaster with 40 samples.

Results

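Levels of 5 receptor genes, Adora2a, Gpr6, Gpr52, P2ry1 and Adora1, were described in nuclei of the nucleus accumbens of 40 prairie voles, out of 19130 genes in the deposited tables. The genes were matched by symbol in any case, and all 5 were found. They were selected on their level measured in D2 medium spiny neurons of these libraries. Their specificity among cell classes is therefore given as a description with no test, and the tests concern the partner and the sex of the animals, and the variation between animals. The accumbens is the ventral part of the striatum, and prairie voles are studied because adults form selective pair bonds. The groups were 11 females paired with a male mate, 8 females paired with a female peer, 11 males paired with a female mate and 10 males paired with a male peer. All of them had been paired for 16 days, and 1 library was made from the nuclei of each animal. The labels do not name the partners, so animals that shared a cage may not be independent. The p-values for pairing that count each animal as independent may then be too small. Animals with consecutive label numbers were a female and a male mate (11 pairs), female peers (4 pairs) or male peers (5 pairs), and tests with these 20 pairs as units are given beside the others, though no label calls them partners.

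Medium spiny neurons carry dopamine receptors of the D1 or the D2 type, and the D2 type forms the striatal output that also makes enkephalin. In these neurons the adenosine A2A receptor raises cyclic AMP through the G protein subunit made from Gnal and the adenylyl cyclase made from Adcy5, against the dopamine D2 receptor, which lowers it. Adenosine arises outside cells from ATP and ADP, so receptors for ADP and for adenosine read successive products of the same nucleotide. GPR6 and GPR52 are orphan receptors, with no settled natural ligand, that also raise cyclic AMP.

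After filtering, 178387 nuclei were kept, of which 28883 (16.2%) lay in 2 clusters named D2 medium spiny neuron-like, shortened to D2-like. Each of these clusters had 4 of the 6 fixed D2 markers at least 1 log2 unit above the other nuclei. In the smaller of the 2 clusters Penk, a marker on the D2 list, was not among these 4. It lay there below its level over the other nuclei, at a mean of 554 CPM, while Tac1 from the D1 list had 1219 CPM. Libraries held 2903140 to 12840527 UMIs (counted RNA molecules) in kept nuclei, and 100 to 1437 D2-like nuclei. Depth per nucleus stood apart in male mate 2, with a median of 652 UMIs against 2145 in the deepest library, and 6375 of its barcodes fell under the limit of 500 UMIs. That library gave 1.72% D2-like and 42.3% glutamate neuron-like nuclei. In female peer 1, 45.4% of nuclei stayed in clusters without a name, and its median mitochondrial share was the highest, at 0.719%. Of 171078 distinct barcodes, 21545 occurred in more than 1 library, and no pair of libraries shared more than 2.22% of the smaller one's barcodes. Levels are CPM, the UMIs of a gene summed over the nuclei of a class in each animal and scaled to 1000000 UMIs of all genes. They are of nuclear RNA and not scaled to gene length, so a level is compared between classes and animals, and an order of genes by CPM serves only to choose which genes are named.

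Adora2a, which encodes the A2A receptor, was high in D2-like nuclei of every animal. Its level there ran from 686 CPM in female mate 2 through a median of 943 to 1144 CPM in female peer 2, with a mean of 933 ± 132 (SD, n = 40 animals). In D1-like nuclei, the other main class of medium spiny neuron, it ran from 5.06 through 11.2 to 38.1 CPM, the highest value being in the shallow library of male mate 2. The lowest D2-like value thus lay far above the highest D1-like value. The ratio of the mean levels was 74.8, and the log2 ratio within an animal, with a pseudocount of 5 CPM, averaged 5.80 ± 0.47 (SD). Of 17189 genes with a UMI in either class, Adora2a had the highest ratio of D2-like to D1-like level, followed by Penk, the enkephalin precursor, and Drd2, the dopamine D2 receptor. D2-like nuclei held 89.2% of all Adora2a UMIs.

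Adora1 encodes the A1 receptor, which lowers cyclic AMP and acts widely in the brain, and it was not particular to D2-like nuclei. Its D2-like level ran from 10.2 CPM in female peer 1 through 33.7 to 51.0 CPM in female mate 9, with a mean of 33.0 ± 7.45 (SD, n = 40). D1-like nuclei had 31.7 ± 7.65 CPM, and the level was higher in D2-like nuclei in 25 of 40 animals. Both classes covered almost the same range, and the log2 ratio within an animal averaged 0.05 ± 0.28 (SD). Adora1 stood at place 2759 of the 17189 genes by that ratio. D1-like nuclei held 26.2% of its UMIs, D2-like nuclei 24.2% and glutamate neuron-like nuclei 22.8%.

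P2ry1, a receptor for ADP, was high in D2-like nuclei but higher still in microglia-like nuclei. In D2-like nuclei it ran from 45.4 CPM in male peer 2 through 69.0 to 99.0 CPM in female mate 6, with a mean of 67.9 ± 14.5 (SD, n = 40). D1-like nuclei had 4.21 ± 3.24 CPM, and no animal's D1-like value reached the lowest D2-like value. The ratio of means was 16.1. Microglia-like nuclei had 122 ± 47.3 CPM (n = 39 animals), with a range of 0 to 253 CPM, and were above the D2-like nuclei of the same animal in 36 of 39 animals. Microglia are the resident immune cells of the brain, and they made up 2.63% of nuclei here, so D2-like nuclei still held 76.0% of all P2ry1 UMIs and microglia-like nuclei 6.65%.

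Gpr6 came closest to Adora2a in its distribution. In D2-like nuclei it ran from 568 CPM in female mate 2 through 1096 to 1511 CPM in female mate 8, with a mean of 1078 ± 220 (SD, n = 40). D1-like nuclei had 61.7 ± 27.9 CPM, with a highest value of 135 CPM, so the classes did not overlap. The ratio of means was 17.5, and D2-like nuclei held 87.4% of the UMIs. Gpr52 ran in D2-like nuclei from 90.7 CPM in female peer 3 through 134 to 187 CPM in female mate 1, with a mean of 135 ± 24.2 (SD, n = 40). D1-like nuclei had 16.2 ± 6.83 CPM, again without overlap, which gave a ratio of 8.31. In the RefSeq annotation of assembly MicOch1.0, Gpr52 lies within Rabgap1l, and the sources used here do not say whether counting used strand, so its counts are uncertain to that extent. Rabgap1l itself had 25.7 ± 7.41 CPM in D2-like and 23.7 ± 5.25 CPM in D1-like nuclei, a difference within the spread. Adora1 overlaps a long noncoding RNA in that annotation in the same way.

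Gpr6, P2ry1 and Gpr52 held places 4, 9 and 10 of the 17189 genes by their ratio of D2-like to D1-like level. A log2 ratio of at least 1 was reached by 4 of the 5 receptor genes, all but Adora1, and by 0.337% of the 17189 genes. Since the genes were selected on this difference, nothing is read from that count.

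**Figure D1:**
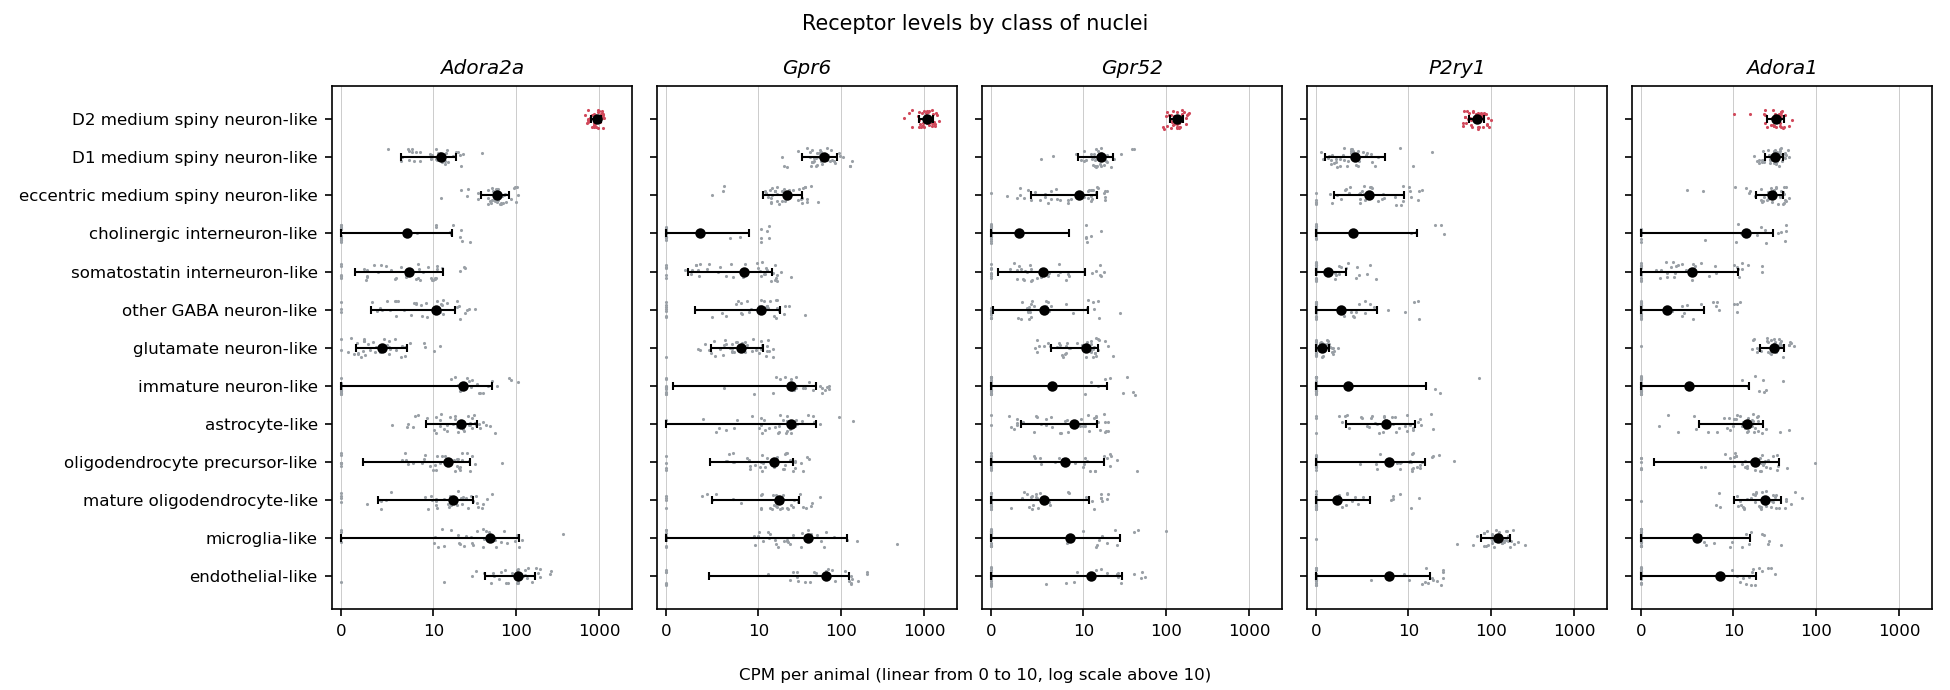
Level of each receptor gene by class of nuclei, in CPM on a symmetric log axis; small points are animals, and black points with bars are means ± SD over animals, with the lower end of a bar stopped at 0. D2-like means lie far above those of the other classes for Adora2a, Gpr6 and Gpr52, microglia-like nuclei lie above them for P2ry1 (122 against 67.9 CPM), and Adora1 forms a slope without a gap from 33.0 to 2.83 CPM.

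Single D2-like nuclei had a median of 1993 UMIs and D1-like nuclei 2104. In D2-like nuclei, 80.0 ± 8.40% held an Adora2a UMI, 82.8 ± 8.58% a Gpr6 UMI, 25.0 ± 6.90% a Gpr52 UMI, 13.6 ± 4.21% a P2ry1 UMI and 7.08 ± 1.96% an Adora1 UMI (mean ± SD over 40 animals). After thinning every nucleus to 1000 UMIs, which left out 642 D2-like and 488 D1-like nuclei, an Adora2a UMI remained in 59.6% of D2-like nuclei (95% exact binomial interval 59.0 to 60.2%, which covers counting error only) and in 1.12% of D1-like nuclei. The thinned shares in D2-like and D1-like nuclei were 64.5% and 5.87% for Gpr6, 12.5% and 1.57% for Gpr52, and 6.68% and 0.472% for P2ry1. For Adora1 they were 3.45% and 3.20%. In glutamate neuron-like nuclei (median 2434 UMIs), the thinned share for Adora2a was 0.562%, the lowest of the classes with more than 1000 thinned nuclei, although some glutamate neurons are known to make the A2A receptor at a low level. A Gpr6 UMI was found in 64.9% of thinned D2-like nuclei with an Adora2a UMI and in 63.9% of those without one, and a Drd2 UMI in 30.0% and 28.2%. Of Adora2a, Gpr6, Gpr52 and P2ry1, no gene was detected in 11.9% of thinned D2-like nuclei, 1 gene in 40.9%, 2 genes in 39.6%, 3 genes in 7.25% and all 4 in 0.361%.

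The ratio of Gpr6 to Adora2a UMIs, summed over animals, differed between the named classes. In D1-like nuclei the UMIs of Gpr6 and Adora2a stood at a ratio of 5.19, against 1.16 in D2-like nuclei, so that Gpr6 made up 83.8% of the pair in D1-like and 53.7% in D2-like nuclei. By animal this share averaged 81.1 ± 10.9% (SD, n = 40) in D1-like nuclei, from 33.3% in male mate 2, which had few of these UMIs, to 96.2% in male peer 8, and 53.3 ± 4.16% in D2-like nuclei. It was higher in D1-like nuclei in 39 of 40 animals. In astrocyte-like and mature oligodendrocyte-like nuclei the ratio was 1.09 and 1.04, near that of D2-like nuclei, and it was 1.07 in oligodendrocyte precursor-like, 1.06 in other GABA neuron-like and 1.15 in somatostatin interneuron-like nuclei. Glutamate neuron-like nuclei had a ratio of 1.82, with a Gpr6 share of 64.5% (95% exact interval 61.2 to 67.8%), and microglia-like nuclei one of 0.773, with a share of 43.6% (36.8 to 50.6%). In the microglia-like cluster of 4589 nuclei alone, the ratio was 0.606, with a share of 37.7% (30.0 to 46.0%). The glutamate value was uneven, with 3.19 in a cluster of 4523 nuclei led by Nr4a2, against 1.62, 1.33 and 1.42 in the other 3 clusters of that class. These intervals cover counting error only, not the spread between animals. The part of stray RNA in these ratios was not tested.

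In eccentric medium spiny neuron-like nuclei, a class set apart by Otof, Foxp2 and Tshz1, the ratio was 0.390, with Adora2a at 59.4 ± 21.6 CPM and Gpr6 at 22.4 ± 11.1 CPM (n = 40). This came from 1 of its 2 clusters. In the cluster led by Foxp2 and Otof (10326 nuclei) Adora2a had 72.8 ± 27.7 CPM and the Gpr6 to Adora2a ratio was 0.288. Drd2 had 5.32 ± 4.42 CPM there and Drd1a 955 ± 110 CPM, all as means of the cluster. In the cluster led by Col14a1 (4445 nuclei) Adora2a had 9.93 ± 9.85 CPM and Gpr6 31.3 ± 23.5 CPM. Adora1 split the same way, with 34.8 ± 12.5 and 7.22 ± 8.27 CPM in these clusters.

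Cholinergic interneuron-like nuclei, which also carry the D2 receptor, had 145 ± 71.5 CPM of Drd2 (n = 24 animals) but 7.14 ± 9.43 CPM of Adora2a and 3.61 ± 5.38 CPM of Gpr6. Their median for either receptor gene was 0. The D2-type pattern of these receptors thus did not follow Drd2 into this class. Endothelial-like nuclei, from blood vessel walls, had 107 ± 64.3 CPM of Adora2a (n = 32 animals), the second highest class mean for that gene. The class held 1602 nuclei over all libraries, and values ranged from 0 to 260 CPM in the 32 animals with at least 20 of them. Penk, which D2-like nuclei make at a high level, had 523 ± 371 CPM in endothelial-like nuclei, and the ratio of Gpr6 to Adora2a was 0.567 there. The part of stray RNA in these values was not tested.

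For Adora2a, Gpr6 and Gpr52 only the step from D2-like nuclei to the next class exceeded 1 SD of the within-animal difference, and for P2ry1 only the steps from microglia-like to D2-like nuclei and from there to oligodendrocyte precursor-like nuclei (7.93 ± 7.95 CPM) did. For Adora1 no step between neighbours did. Its means descended from D2-like and D1-like to glutamate neuron-like (31.0 ± 10.2 CPM), eccentric medium spiny neuron-like (29.0 ± 10.5), mature oligodendrocyte-like (24.1 ± 13.9), oligodendrocyte precursor-like (18.4 ± 17.1), astrocyte-like (14.5 ± 8.26) and cholinergic interneuron-like nuclei (14.3 ± 15.8). Endothelial-like (8.52 ± 10.2), microglia-like (6.05 ± 9.79), somatostatin interneuron-like (5.50 ± 5.72), immature neuron-like (5.20 ± 10.2) and other GABA neuron-like nuclei (2.83 ± 4.00) followed. Within the glutamate neuron-like class Adora1 was uneven, with 58.5 ± 17.5 CPM in 1 cluster of 6611 nuclei and 19.1 ± 7.55 CPM in the largest cluster of 8789 nuclei. Microglia-like nuclei had 48.2 ± 60.5 CPM of Adora2a, which was 35.0 ± 29.1 CPM without a cluster of 106 nuclei of which 39.6% came from 1 library, while their P2ry1 level was 126 ± 46.1 CPM without it.

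Nuclei were also sorted by receptor UMIs alone, without clusters. The 16285 nuclei with a Drd2 UMI and no Drd1a UMI had 872 ± 130 CPM of Adora2a and 990 ± 207 CPM of Gpr6. The 42339 nuclei with a Drd1a UMI and no Drd2 UMI had 30.6 ± 9.61 and 53.9 ± 17.7 CPM. P2ry1 had 65.2 ± 15.9 against 4.30 ± 1.66 CPM and Gpr52 121 ± 22.4 against 14.1 ± 4.70 CPM. These values were close to those of the clusters, apart from Adora2a in Drd1a nuclei, which was above the 12.5 CPM of D1-like nuclei. Adora1 was alike in both sets, at 32.9 ± 8.85 and 32.0 ± 7.21 CPM. Of the nuclei left without a class, 2 clusters of 6209 and 3558 nuclei carried Adora2a at 359 ± 115 and 320 ± 83.9 CPM together with Drd2 at 136 ± 61.6 and 150 ± 53.0 CPM and Drd1a at 387 ± 100 and 379 ± 102 CPM. Both were shallow, at 0.590 and 0.607 of their library's median depth, and 34.0% of the first came from 1 library.

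Within the D2-like class Gpr52 and P2ry1 differed more between the 2 clusters than Adora2a did, and Gpr6 differed least. The larger D2-like cluster (23553 nuclei) was rich in Penk, at 6846 ± 1530 CPM. The smaller one (5330 nuclei) was led by Cpne7, Col6a2 and Htr2a, with 554 ± 396 CPM of Penk and 1219 ± 443 CPM of Tac1, the substance P precursor usually found in D1 neurons. Drd2 was alike in both, at 354 ± 60.3 and 373 ± 78.6 CPM. Gpr52 was 2.32-fold lower in the smaller cluster, 151 ± 28.7 against 65.0 ± 23.2 CPM, in 40 of 40 animals. P2ry1 was 2.89-fold lower, 77.9 ± 17.1 against 27.0 ± 16.8 CPM, in 39 of 40 animals. Adora2a was 1.26-fold lower in 40 of 40 animals, 972 ± 130 against 773 ± 150 CPM. Gpr6 had 1069 ± 213 and 1113 ± 279 CPM and was lower in the smaller cluster in 17 of 40 animals, and Adora1 had 31.9 ± 7.62 and 38.9 ± 14.4 CPM. The smaller cluster made up 6.73 to 48.0% of an animal's D2-like nuclei, with a median of 18.2%. The 48.0% was that of male mate 2, the shallow library with 100 D2-like nuclei, and the next highest share was 28.9%.

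The D2-like nuclei were clustered again by themselves, without the 5 receptor genes, which gave 7 subtypes. Subtype 4 (5105 nuclei, of which 4897 came from the smaller cluster), led by Htr2a, Tac1 and Adra1a, had the lowest Gpr52 level, 62.4 ± 22.9 CPM, and the lowest P2ry1 level, 27.0 ± 16.9 CPM. Gpr52 was highest in subtype 2 (6740 nuclei), led by Npffr2 and Hcrtr2, at 183 ± 39.9 CPM, and there it exceeded the other D2-like nuclei of the same animal in 38 of 39 animals. P2ry1 was highest in subtype 3 (5199 nuclei), led by Tac2 and Calcr, at 101 ± 34.8 CPM, above the other D2-like nuclei in 35 of 38 animals. It was nearly as high in subtype 1 (6766 nuclei), led by Abi3bp, at 92.3 ± 24.3 CPM, above the others in 37 of 39 animals. Both subtypes stood above subtype 2, with 64.5 ± 18.2 CPM of P2ry1, so that the subtypes with the most Gpr52 and the most P2ry1 were not the same.

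Subtype 5 (1985 nuclei), led by Asic4, Slc22a3 and Foxp2, had 38.1 ± 25.6 CPM of P2ry1, below the others in 31 of 34 animals, beside 1089 ± 194 CPM of Adora2a, the highest mean of the 7. Adora2a was lowest in subtypes 3 and 4, at 760 ± 141 and 760 ± 155 CPM, and in subtype 3 it lay below the other D2-like nuclei in 38 of 38 animals. Gpr6 varied least, from 957 ± 217 CPM in subtype 2 to 1195 ± 255 CPM in subtype 5. Subtype 6 (1945 nuclei), led in part by mitochondrial genes, and subtype 7 (1143 nuclei), led by the immediate early genes Fos and Fosb, had 80.8 ± 33.3 and 54.0 ± 30.3 CPM of P2ry1. Adora1 ran from 26.5 ± 12.9 CPM in subtype 3 to 38.2 ± 14.1 CPM in subtype 4. For each of the 5 genes the ranges over animals of all 7 subtypes overlapped.

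**Figure D2:**
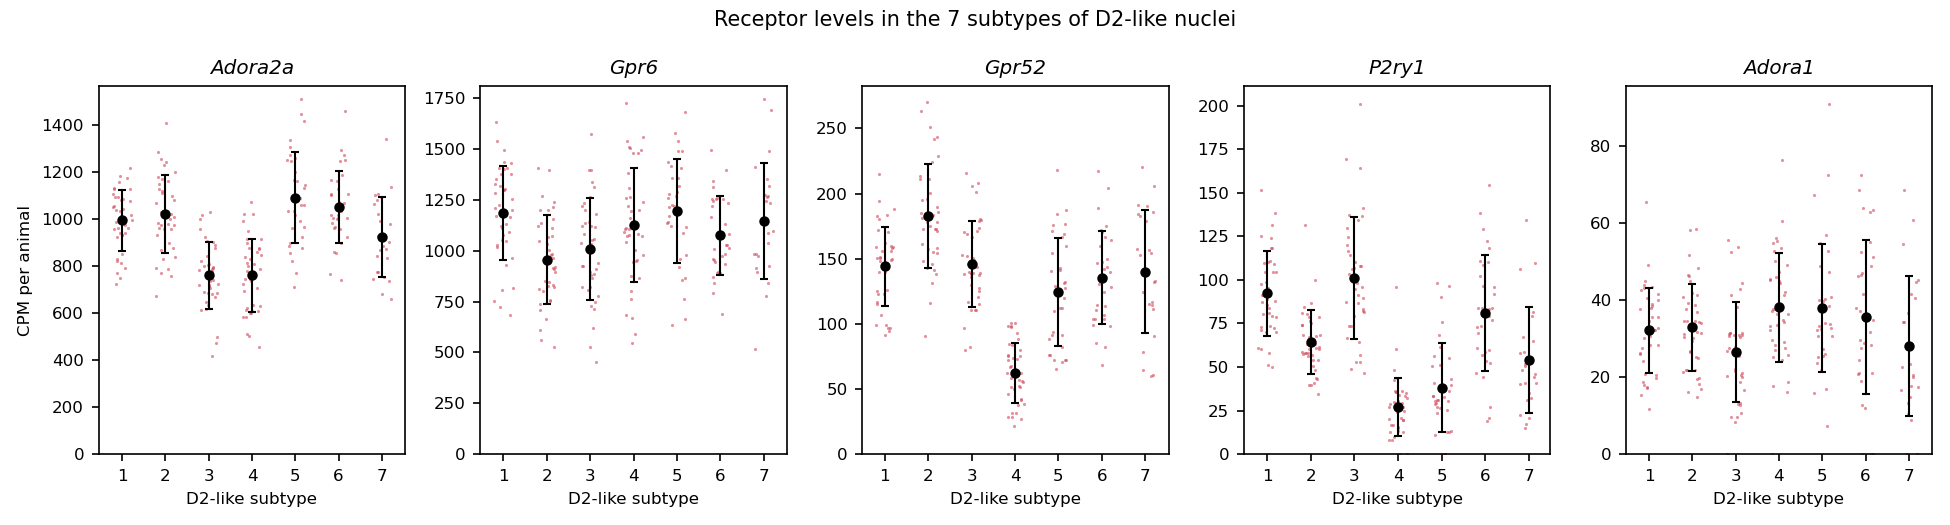
Level of each receptor gene in the 7 subtypes of D2-like nuclei, in CPM; small points are animals with at least 20 nuclei of the subtype, and black points with bars are means ± SD. Subtype 4 stands low for Gpr52 (62.4 CPM) and P2ry1 (27.0 CPM), while the means of Gpr6 stay between 957 and 1195 CPM.

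Over 32 clusters of all nuclei and 13547 genes, the gene whose log2 level was most like that of Adora2a was Gpr6 (Pearson's r = 0.922), followed by Fig4 (0.885), Gpr52 (0.795), Upb1 (0.791) and Ppp1r1b (0.775), which encodes the protein phosphatase regulator DARPP-32. Genes most like Gpr6 included Adora2a, Sh3rf2 (0.866), Tbc1d10c (0.862) and Fig4 (0.859). For Gpr52 they were Gpr6 (0.850), Tbc1d10c (0.840), Tango6 (0.818), Htr4 (0.817) and Upb1 (0.806). P2ry1 came nearest to Fig4 (0.825), Nfatc2 (0.787), Diaph2 (0.769), Acpp (0.767) and ENSMOCG00000014544 (0.754). Adora1 came nearest to Cdhr1 (0.766), Arhgap32 (0.749), Stum (0.740), ENSMOCG00000016833 (0.735) and Diras2 (0.728). Clusters share libraries and differ in depth, so these r values describe likeness only. Fig4, a phosphoinositide phosphatase, was itself at 377 CPM in the larger and 222 CPM in the smaller D2-like cluster, against 25.5 CPM in the largest D1-like cluster.

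Few other receptors for nucleotides and adenosine reached 10 CPM in D2-like nuclei. Of 15 such receptor genes measured, 2 did so, beside 9328 of the 17189 genes with a UMI in D1-like or D2-like nuclei. They were P2rx4 at 65.5 ± 18.3 CPM and P2rx6 at 18.1 ± 6.48 CPM, both ATP-gated channels at about the D1-like level. P2ry14 and P2ry12 had 3.89 ± 1.90 and 1.71 ± 1.43 CPM, and P2ry12 had 3019 CPM in microglia-like nuclei. In this and the following lists, log2 ratios used the pseudocount of 5 CPM. None of the 15 differed from D1-like nuclei by a log2 ratio of 1, beside 58 higher and 45 lower of 17189 genes. All but P2rx4 and P2rx6 lay under 5 CPM in both classes, where the pseudocount keeps the ratio from reaching 1. Nothing is therefore read from that count. Among 15 genes of nucleotide and adenosine turnover those with the most UMIs in D2-like nuclei were Entpd3 (203 ± 36.8 CPM), which cleaves ATP and ADP, Adk (91.5 ± 17.1), which removes adenosine inside cells, Enpp2 (69.0 ± 18.8) and Enpp1 (55.1 ± 22.6). Nt5e, which forms adenosine outside cells and was picked after its values were seen, was the only gene of that list past a log2 ratio of 1, with 52.9 ± 15.9 CPM in D2-like and 18.1 ± 6.61 CPM in D1-like nuclei. Its highest class was astrocyte-like, at 454 CPM.

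Of 26 other orphan receptors of the brain, those with many UMIs in D2-like nuclei included Gpr162 (313 ± 50.8 CPM), Gpr158 (249 ± 42.5) and Gpr12 (104 ± 24.0). None of the 26 was higher than in D1-like nuclei by a log2 ratio of 1, while Gpr83 and Gpr139, also named after their values were seen, were lower by that much. Of 24 genes of the cascade downstream, 0 differed by a log2 ratio of 1 in either direction, beside 58 higher and 45 lower of the 17189 genes, a background too low to read that count against. Gnal had 1709 ± 124 CPM in D2-like and 1668 ± 110 CPM in D1-like nuclei, Adcy5 1899 ± 171 and 2263 ± 191 CPM, Pde1b, a phosphodiesterase, 1903 ± 279 and 2005 ± 288 CPM, and Rgs9, which speeds the end of G protein signals, 1562 ± 291 and 1432 ± 266 CPM. Of 6 genes listed here as partner receptors of the A2A or A1 receptor, Grm5, Gria1, Drd2 and Cnr1 had 422 ± 87.4, 410 ± 66.1, 357 ± 59.4 and 102 ± 34.5 CPM in D2-like nuclei. Whether each listed product pairs with these receptors was not checked.

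The series compared animals living with a mate and animals living with a peer. In D2-like nuclei no difference of the 5 receptor genes with partner, sex or their interaction passed the test. All 5 passed the filter on low counts in D2-like nuclei. For Adora2a the 22 mates ran from 686 through a median of 951 to 1118 CPM and the 18 peers from 736 through 931 to 1144 CPM. For Gpr6 the mates ran from 568 through 1033 to 1511 CPM and the peers from 721 through 1110 to 1433 CPM. For Gpr52 the mates ran from 94.7 through 130 to 187 CPM and the peers from 90.7 through 134 to 175 CPM. The groups overlapped over most of their range for these 3 genes. P2ry1 ran from 47.3 through 75.2 to 99.0 CPM in mates and from 45.4 through 66.8 to 82.4 CPM in peers. Adora1 ran from 23.5 through 33.6 to 51.0 CPM in mates and from 10.2 through 33.7 to 41.9 CPM in peers. The 2 lowest P2ry1 values of the groups were alike, and the highest lay in mates.

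The mean Adora2a levels of the groups were 944 ± 134 CPM in female mates, 948 ± 160 in female peers, 913 ± 148 in male mates and 932 ± 102 in male peers. For Gpr6 they were 1042 ± 289, 1108 ± 172, 1022 ± 166 and 1157 ± 223 CPM in the same order. Both genes thus had group means closer together than 1 SD. P2ry1 had 73.8 ± 16.7, 62.1 ± 10.4, 69.6 ± 15.7 and 64.3 ± 12.1 CPM, Gpr52 137 ± 26.4, 122 ± 19.2, 135 ± 27.5 and 142 ± 20.9 CPM, and Adora1 33.4 ± 7.72, 27.6 ± 11.0, 34.7 ± 5.32 and 35.1 ± 3.78 CPM.

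**Figure D3:**
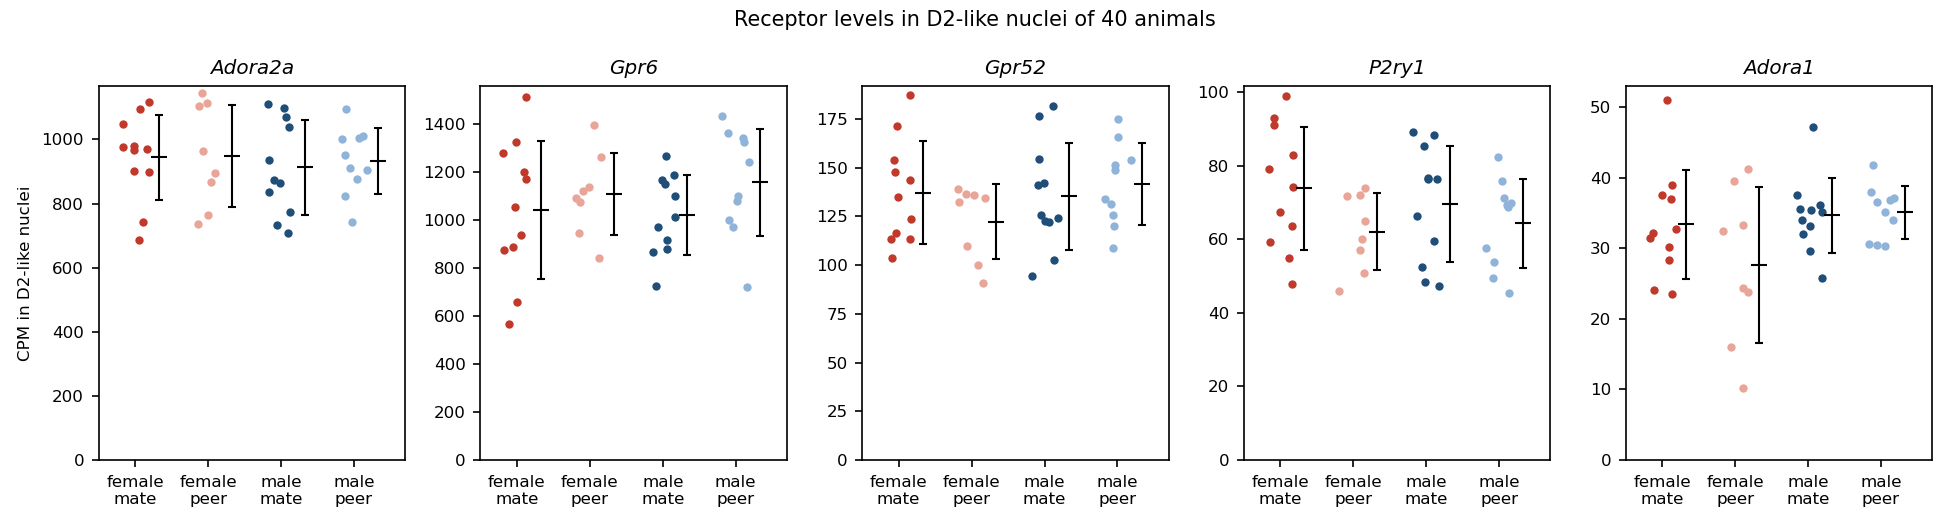
Level of each receptor gene in the D2-like nuclei of each of the 40 animals, in CPM, by group; each point is 1 animal, and the black marks are the group mean ± SD. The 4 groups overlap for every gene, and the lowest Adora1 value (10.2 CPM) is a female peer.

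Tested with edgeR's quasi-likelihood test over 10498 genes with Benjamini-Hochberg adjustment, 0 of 5 receptor genes were called for pairing (mate minus peer), as were 0% of all genes tested, and 0 of 5 had an unadjusted p under 0.05, against 4.21% of all genes. DESeq2 gave 0 of 5 on both counts, but its share of all genes was not counted, so nothing is read from them. The log2 fold change was -0.02 ± 0.07 (SE) for Adora2a, with a 95% interval of -0.17 to 0.13, and 0.05 ± 0.08 for Gpr52, with an interval of -0.10 to 0.20. For these genes the interval allowed at most 1.15-fold differences upward. Gpr6 had -0.14 ± 0.10 (interval -0.34 to 0.06) and Adora1 0.08 ± 0.10 (interval -0.13 to 0.29). P2ry1 was nearest to the threshold, with 0.19 ± 0.10 (interval -0.00 to 0.38, p = 0.0529, adjusted p = 1.000 by edgeR). The correlation of levels within label pairs, group means removed, ran from 0.10 for Gpr52 to 0.46 for Gpr6 (20 pairs, a description). A trend over label numbers was not removed, and whether the genes differ in this correlation was not tested. With counts summed per pair, edgeR called 0 of 5 receptor genes for pairing, beside 0 of 11433 genes tested. P2ry1 had 0.19 ± 0.11 there (p = 0.0792, adjusted p = 1.000). With the pairs as a random block in limma (consensus correlation 0.11), 0 of 5 were called for pairing, sex or the interaction. Of all 10498 genes, 0, 2 and 0 were called in these comparisons. P2ry1 had a pairing difference of 0.17 ± 0.10 in that fit (p = 0.0972, adjusted p = 0.999).

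The animals' label numbers fall into 4 blocks of 10, and the labels do not say whether a number stands for a date or a batch. With these blocks as a term, the P2ry1 pairing difference was 0.32 ± 0.09 (p = 7.9e-04, adjusted p = 0.702 by edgeR), and 9 of 10498 genes had a lower p. In that fit 1 of 5 receptor genes, P2ry1, had an unadjusted p under 0.05 for pairing (4.68% of all genes), within females (5.12%) and within males (1.92%). Its difference was 0.35 within females (p = 0.00745, adjusted p = 0.883 by edgeR) and 0.28 within males (p = 0.0214, adjusted p = 1.000). The groups are spread unevenly over the blocks, since the first holds 4 female mates, 0 female peers, 4 male mates and 2 male peers, and P2ry1 means were 59.1 ± 12.0, 65.0 ± 17.1, 74.8 ± 14.4 and 72.9 ± 9.39 CPM from the first to the last block. For Gpr6 they were 957 ± 264, 951 ± 108, 1143 ± 187 and 1263 ± 126 CPM in the same order, and for Gpr52 136 ± 28.7, 133 ± 19.5, 133 ± 28.1 and 138 ± 22.9 CPM. In the last block no animal had less than 1077 CPM of Gpr6, and in the second block none had more than 1136 CPM.

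For sex (female minus male), 0 of 5 receptor genes were called by edgeR, against 0.0191% of all genes, and 0 of 5 had an unadjusted p under 0.05, against 5.42%. Gpr52 had a median of 134 CPM in both females and males and a log2 fold change of -0.13 ± 0.08 (SE), with an edgeR p of 0.102 and an adjusted p of 0.960. Adora1 had -0.15 ± 0.10 (interval -0.36 to 0.06), and the other 3 genes lay between -0.02 and 0.03. For the interaction of pairing and sex, 0 of 5 were called, against 0% of all genes, and 0 of 5 had an unadjusted p under 0.05, against 2.60%. The largest interaction was that of Gpr52, 0.23 ± 0.15 (interval -0.08 to 0.54). Within females 0 of 5 were called (0% of all genes; unadjusted, 0 of 5 and 5.14%), and within males 0 of 5 (0% of all genes; unadjusted, 0 of 5 and 1.84%). DESeq2 gave 0 of 5 in each of these comparisons, with or without adjustment, again without a count over all genes to read it against.

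**Figure D4:**
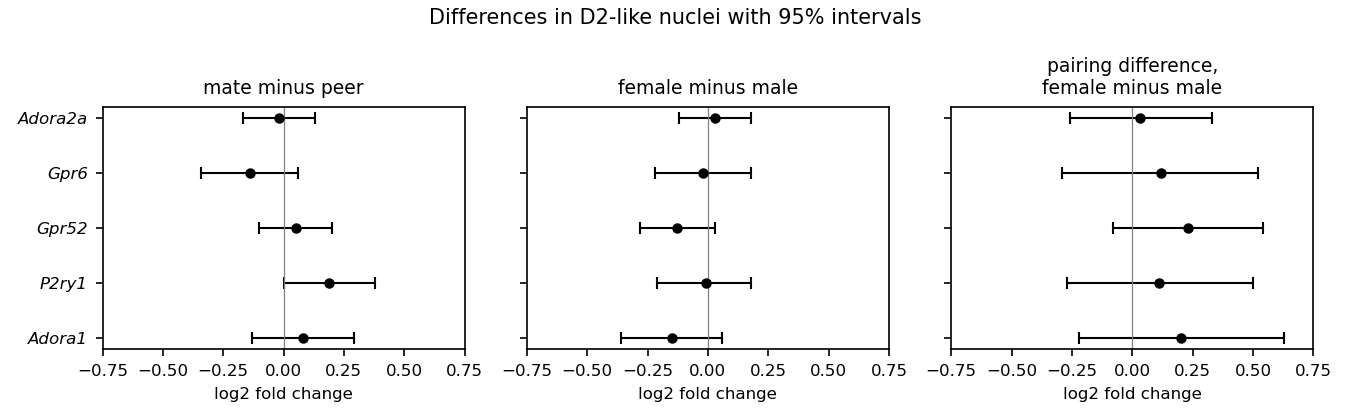
Log2 fold changes of the 5 receptor genes in D2-like nuclei for pairing, sex and their interaction; points are edgeR estimates and bars 95% intervals over the 40 animals. Each interval includes 0, and the P2ry1 pairing interval starts just below it, at -0.00.

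Summed over all kept nuclei, where fewer D2-like nuclei and less RNA per nucleus cannot be told apart, Gpr52 had the lowest p of the 5 genes for pairing, within females and for the interaction in the fit without blocks. The 11 female mates ran from 30.0 through 38.8 to 53.3 CPM and the 8 female peers from 18.6 through 29.0 to 36.6 CPM, with means of 39.4 ± 7.57 and 28.6 ± 6.72 CPM. The ranges overlapped between 30.0 and 36.6 CPM. The log2 fold change within females was 0.45 ± 0.15 (SE), with an edgeR p of 0.00451 and an adjusted p of 0.672, so it was not called. In the same animals D2-like nuclei were 17.6 ± 3.95% of nuclei in female mates and 13.1 ± 5.14% in female peers, and within D2-like nuclei the Gpr52 difference was 0.17 ± 0.11. The median mitochondrial share of a library was 0.312 ± 0.0763% in female mates and 0.410 ± 0.165% in female peers, and its part in the difference was not tested. Male mates and male peers had 37.8 ± 7.66 and 36.3 ± 10.7 CPM, and the interaction was 0.42 ± 0.21 (p = 0.0495, adjusted p = 0.999 by edgeR). With the 4 blocks as a term, the Gpr52 difference within females was 0.42 (p = 0.00972, adjusted p = 0.822 by edgeR) and its interaction 0.34 (p = 0.109, adjusted p = 1.000). In that fit P2ry1 had the lowest p for pairing, with 0.41 ± 0.13 (p = 0.00364, adjusted p = 0.865 by edgeR). At an unadjusted p under 0.05 the fit with blocks had 3 of 5 genes, P2ry1, Gpr52 and Adora1, for pairing (5.49% of all genes) and within females (5.68%), and 0 of 5 were called. With label pairs as a random block in limma, Gpr52 within females had 0.43 ± 0.16 (p = 0.00851, adjusted p = 0.795).

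Over all nuclei and 13690 genes, edgeR called 0 of 5 receptor genes for pairing (0% of all genes; unadjusted, 1 of 5 and 6.87%), 0 of 5 for sex (0.0146% of all genes; unadjusted, 0 of 5 and 8.69%) and 0 of 5 for the interaction (0% of all genes; unadjusted, 1 of 5 and 1.89%). Within females it called 0 of 5 (0% of all genes; unadjusted, 2 of 5 and 7.26%) and within males 0 of 5 (0% of all genes; unadjusted, 0 of 5 and 1.45%). DESeq2 called 0 of 5 in each, with 1 gene at an unadjusted p under 0.05 for pairing, 1 for the interaction and 3 within females. The share of all genes under that limit was not counted for DESeq2, so nothing is read from these counts. In the 11 other classes tested, 15 pairs of a receptor gene and a class passed the filter on low counts. P2ry1 passed only in microglia-like nuclei, Adora2a in D1-like, eccentric, astrocyte-like, endothelial-like and glutamate neuron-like nuclei. Of these 15, 0 were called for pairing (0% of 70225 gene and class pairs; unadjusted, 1 of 15 and 5.16%), 0 for sex (0.0242% of the pairs; unadjusted, 0 of 15 and 4.73%) and 0 for the interaction (0% of the pairs; unadjusted, 0 of 15 and 2.78%). DESeq2 called 0 and had 0 at an unadjusted p under 0.05, also without a count over all genes to read it against. The 1 pair was Adora2a in eccentric medium spiny neuron-like nuclei, which ran from 26.2 through 64.3 to 101 CPM in mates and from 12.4 through 54.6 to 105 CPM in peers. The log2 fold change was 0.34 ± 0.15 (interval 0.03 to 0.65), with an edgeR p of 0.0294 (adjusted p = 0.969). The ranges overlapped almost fully. This class sums 2 clusters with unlike Adora2a levels, and the part of their shares in this difference was not tested.

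Of the lists of related genes, 0 genes were called in either direction for pairing, sex or the interaction in D2-like nuclei. Of all 10498 genes, 0, 2 and 0 were called in these comparisons, so nothing is read from that count. For pairing the median log2 fold changes were -0.11 over 2 other purinergic receptors tested, -0.05 over 11 turnover genes, 0.04 over 19 orphan receptors, -0.02 over 23 genes of the cascade and 0.06 over 6 partner receptors, beside -0.00 over all 10498 genes. At an unadjusted p under 0.05, 3 of 19 orphan receptors (2 higher and 1 lower in mates) and 1 of 6 partner receptors, Gria1, were counted for pairing. The share of all genes was 4.21%, and the lists were not tested as sets. For sex they were 3 of 19 orphan receptors (2 higher and 1 lower in females) and 1 of 11 turnover genes, against 5.42% of all genes. The turnover gene was Nt5e, with -0.34 ± 0.13 (p = 0.00941, adjusted p = 0.836 by edgeR). For the interaction there were 0, against 2.60%.

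Taken over all 40 animals, Adora2a and Gpr6 varied together, but strongly within only 1 of 4 blocks of label numbers. The permutation test did not take these blocks into account. Over 40 animals their log2 levels in D2-like nuclei had a Pearson's r of 0.64 (permutation p = 1.0e-05, the smallest that 100000 resamples give; adjusted over 30 relations, 3.0e-04) and a Spearman's rho of 0.59 (permutation p = 1.1e-04, adjusted 0.00300). Without the 2 animals farthest from the median of Adora2a, female mate 2 and male mate 1, r was 0.54. Gpr6 also rose with Penk, with r = 0.61 (permutation p = 2.0e-05, adjusted 3.0e-04) and rho = 0.55 (adjusted 0.00300), and with r = 0.50 without female mate 2 and female peer 4. These were the only relations of the 30 with an adjusted p under 0.05, and 11 had an unadjusted p under 0.05. After subtracting the 4 group means, r was 0.66 for Adora2a with Gpr6 and 0.63 for Penk with Gpr6. In the larger D2-like cluster alone they were 0.68 and 0.63. Over the means of the 20 label pairs they were 0.75 (adjusted permutation p = 0.00480) and 0.71 (adjusted permutation p = 0.00765), again the only relations of the 30 called.

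Mean Adora2a levels in the 4 blocks of 10 label numbers were 888 ± 172, 893 ± 123, 996 ± 105 and 956 ± 102 CPM from the first to the last. Within these blocks, r for Adora2a with Gpr6 was 0.88, 0.23, 0.43 and 0.29, positive in each but strong in the first alone. For Penk with Gpr6 it was 0.75, -0.01, 0.26 and 0.15, so that this relation did not hold within the second block and was weak in the last 2. Gpr52 had r = -0.09 against Adora2a (permutation p = 0.593, adjusted 0.745), -0.03 against Gpr6 (permutation p = 0.834, adjusted 0.893), 0.08 against P2ry1 (permutation p = 0.621, adjusted 0.745) and -0.14 against Adora1 (permutation p = 0.381, adjusted 0.555). Adora2a against the median depth of the library had r = 0.31 (permutation p = 0.0497, adjusted 0.134), which was 0.09 without male mate 2 and female peer 1. Gpr6 against depth had r = -0.01 (permutation p = 0.955, adjusted 0.955).

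**Figure D5:**
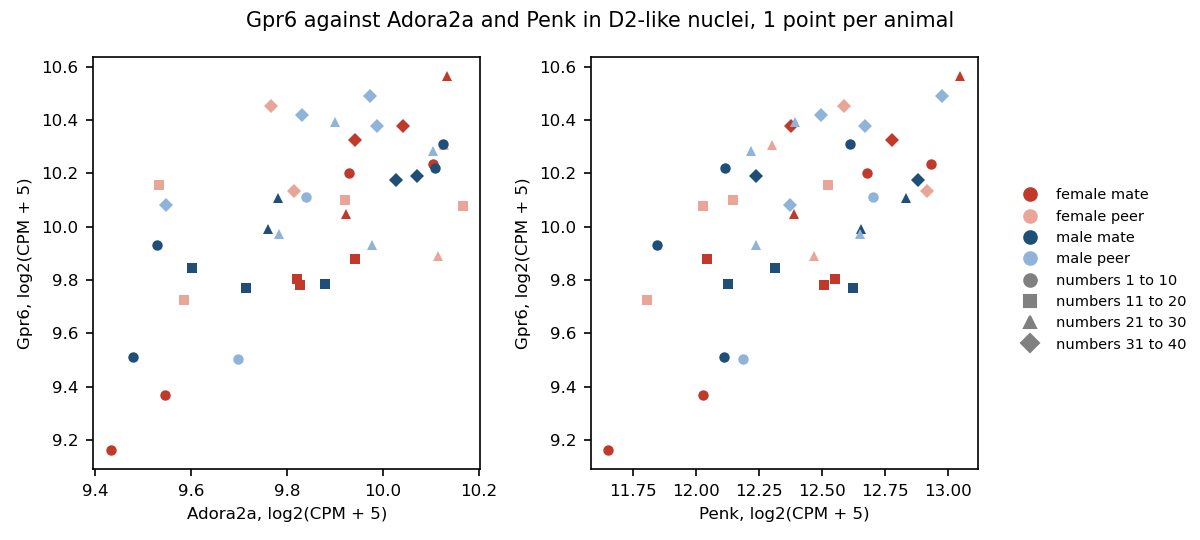
Log2 levels in D2-like nuclei of the 40 animals, Gpr6 against Adora2a (r = 0.64) and Gpr6 against Penk (r = 0.61), as log2(CPM + 5); each point is 1 animal, coloured by group. Animals of the 4 groups lie intermixed along both slopes, and female mate 2 lies at the low end.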

How the data were processed

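Nuclei of the accumbens of 40 voles were measured with 10x Genomics droplets. The authors deposited raw UMI counts per gene and barcode, made with Cell Ranger 3.1.0 per the submitters' processing notes and file headers. The genome build, the barcode rule and the strand of counting are not given in the sources used here. Barcodes under 500 UMIs or above 5% mitochondrial UMIs and 7608 predicted doublets were left out. Counts scaled to 10000 UMIs per nucleus were reduced to 2000 variable genes and 30 components and clustered (Leiden, 15 neighbours, resolution 1; subtypes, 0.5). Clusters were named from marker lists without the 5 receptor genes, needing 3 markers, although Adora2a and Gpr6 were among the variable genes. Counts were summed per animal over classes with at least 20 nuclei and tested with edgeR 4.0.16 (R 4.3.3; TMM, filterByExpr, Benjamini-Hochberg), called at an adjusted p under 0.05, with DESeq2 1.42.0 as an alternative. Pairs of consecutive label numbers were summed for edgeR or taken as a random block (limma 3.58.1, voom, duplicateCorrelation). The edgeR and limma tests were tested on simulated data. Intervals use the t distribution. A class was tested with at least 6 animals per group, so cholinergic interneuron-like nuclei were not. Correlations used log2(CPM + 5), with Python 3.11.15, numpy 2.4.6, scipy 1.17.1, scikit-learn 1.9.0 and igraph 0.11.9. The text names the receptor genes, for each the 5 genes most like it over clusters, the 4 highest genes of each list and the markers Drd2, Drd1a, Penk and Tac1. Of the genes so chosen, 1 is not reported here. Members, lists and alternatives were chosen with earlier results of these data known. No sequence is shown, since none was used here.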

Additional observations from a re-analysis of the deposited data

How the results depend on the processing

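Of 21 settings in all, only some refit the tests. Those gave 89 alternative counts of receptor genes called, and each was 0, under edgeR, DESeq2 and limma alike. In the main fit of D2-like nuclei, 0% of all genes were called for pairing and 0.0191% for sex. Nothing about the receptor genes is therefore read from these counts. Of 185 alternative fold changes in D2-like nuclei, 172 kept their direction and 13 turned, all of them uncalled. With the 4 blocks as a term, the turned values were 0.03 for Adora2a pairing (against -0.02), -0.03 for the Adora2a interaction (against 0.03), 0.04 for Gpr6 sex (against -0.02), -0.02 for the Gpr6 interaction (against 0.12) and 0.02 for P2ry1 sex (against -0.01). In nuclei with a Drd2 UMI and no Drd1a UMI they were 0.01 for Adora2a pairing, -0.02 for the Adora2a interaction, 0.00 for Gpr6 sex and 0.01 for P2ry1 sex. The Adora2a interaction was -0.00 in nuclei with at least 1000 UMIs, -0.02 without female peer 1 and -0.01 at double clustering resolution, where the P2ry1 interaction was -0.28 (against 0.11). The cause was not tested. The log2 ratio of Adora2a in D2-like to D1-like nuclei was 4.66 by receptor UMIs against 5.80 by clusters. Thinning to 1000 UMIs gave shares of D2-like nuclei of 59.6% for Adora2a, 64.5% for Gpr6, 12.5% for Gpr52, 6.68% for P2ry1 and 3.45% for Adora1. The relation of Gpr6 with P2ry1, r = 0.34 (adjusted permutation p = 0.123), was 0.43 in residuals from the group means (adjusted permutation p = 0.0487). Without male mate 2 the log2 ratio of Adora2a was 5.84, and without female peer 1 it was 5.80. Replicate numbers follow label order. A female mate and a male mate with the same replicate number hold consecutive label numbers, while a female peer and a male peer with the same number do not. With the 20 pairs of consecutive label numbers as units, no call for the receptor genes changed. These pairs, leaving out a cluster of astrocyte-like or microglia-like nuclei, and the correlations in the larger D2-like cluster were added after seeing the data. P2ry1, Gpr52 and Adora1 rest on few UMIs per nucleus, so their absence from a single nucleus is not detectable at this depth.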
